A study of Oryza sativa Japonica Group with 74 samples.

Results

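The 6 genes described here mark cells that copy their DNA, divide or stay undetermined: PCNA (Os02g0805200), CYCB1;1 (Os01g0805600), CYCB2;2 (Os06g0726800), CDKB2;1 (Os08g0512600), OSH1 (Os03g0727000) and OSH15 (Os07g0129700). They were taken by identifier as 6 of the 37849 rice genes in the deposited tables, and were chosen by their measured levels: earlier results of these data had them high in the lux mutant and variable over the day in wild type. Those contrasts are therefore described below without a test. Tests are given for the elf3-1 elf3-2 and phyB mutants, for day length, for time of day in those mutants and for differences between these effects.

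RNA was sequenced from whole rice plants labelled as 21 days old, in a series that asks how the Evening Complex, a clock repressor built on ELF3, ELF4 and LUX, carries day length to flowering. The mutants were lux (OsLUX-/-, 3 libraries at ZT14 in short days), elf3-1 elf3-2 (Oself3-1 -/- Oself3-2 -/-, 17 libraries) and phyB (OsphyB-/-, phyb-1, 18 libraries), the last a red-light photoreceptor mutant. The reference was wild type (WT, Japonica cultivar Nipponbare, 36 libraries). Plants grew in long days (LD, 14 h of light) or short days (SD, 10 h), and ZT counts hours after lights on. WT was sampled at ZT2, ZT6, ZT10, ZT14, ZT18 and ZT24, the elf3-1 elf3-2 and phyB mutants at ZT6, ZT14 and ZT18, each in LD and SD. There were 25 groups, 24 of 3 libraries and 1 (elf3-1 elf3-2 at ZT14 LD) of 2. The labels name no further lines, clones or pools, and lux has no library at another time or in LD. The lux libraries are numbered apart from all others in the series, and no batch is given in the labels used here. A batch of their own cannot be told apart from the lux genotype. Nothing in the labels says that replicates came from separate plants, so p-values measure the spread between libraries, which may be technical.

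In plants, new organs come from meristems, small groups of dividing cells at shoot and root tips. PCNA is the sliding clamp of DNA polymerases and marks DNA synthesis. B-type cyclins activate cyclin-dependent kinases at entry into mitosis, and CDKB2;1 is a plant-specific kinase of that stage, so transcripts of these cyclins and of this kinase mark cells in G2 and mitosis. OSH1 and OSH15 encode class I KNOX homeodomain proteins, which keep shoot meristem cells from differentiating. Class I KNOX genes are normally off in differentiated leaves. In bulk RNA, fewer cells of a type and less RNA per cell cannot be told apart.

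Sequencing depth was 25.7 to 74.1 M gene counts per library, with 34.8 M at the median. The LUX transcript had 46.8, 51.0 and 55.7 TPM (transcript abundance scaled for gene length and library) in the lux libraries, against 73.2, 64.9 and 75.2 TPM in WT at ZT14 SD, so the gene's own reads were not lost. 17 libraries are called doubted here (replicate 1 of the elf3-1 elf3-2, phyB and WT groups at ZT6 and ZT14, WT ZT10 replicate 1, and WT ZT2 and ZT24 replicate 3). All but WT ZT2 LD replicate 3, which lay closer to its own group (0.50) than to any other (0.88) by the distance below, went against their labels or stood apart from their group. On a scale of 92 marker genes where 0 is the other genotypes and 1 is phyB, the 4 WT replicate 1 libraries at ZT6 and ZT14 lay at 0.99 to 1.0 and the 4 phyB ones at 0.0. On the matching scale of 31 genes for elf3-1 elf3-2, the 4 phyB replicate 1 libraries lay at 0.96 to 1.13 and the 3 elf3-1 elf3-2 ones at 0.14 to 0.47. By distance over the 3000 most variable genes, 8 of the 10 doubted WT libraries were nearer another WT group than their own, against 1 of the 26 other WT libraries. The samples stay in the groups their labels give, and the tests that rest on doubted libraries are given with and without them.

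Every member was higher in each of the 3 lux libraries than in any of the 71 other libraries. Such complete separation above all others held for 18% of the 28912 tested genes, and separation below them for 4.88%, and the members were chosen for this contrast, so the count of 6 of 6 supports nothing. PCNA differed least from WT and the KNOX genes most, as the plot of members by library shows.

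**Figure D1:**
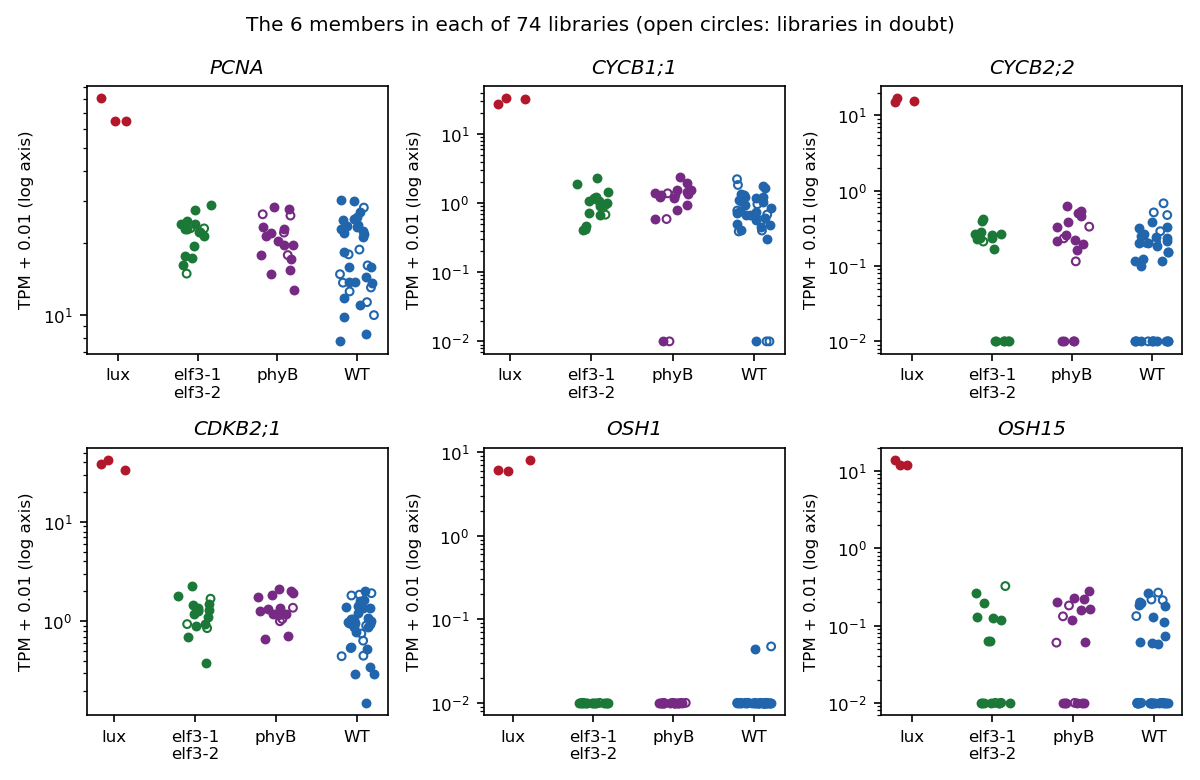
TPM, plus a small constant, on a log axis for the 6 members, with lux, elf3-1 elf3-2, phyB and WT from left to right. Each point is a library, open where doubted. The lux points lie above all others for each gene, from a small gap for PCNA (64.6 TPM or more, against 30.2 or less) to almost no signal outside lux for OSH1.

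PCNA had 64.6, 64.7 and 80.9 TPM in lux, against 28.1, 24.9 and 29.9 TPM in WT at ZT14 SD. The groups did not overlap, and the ratio of scaled counts was 2.23 (95% counting interval 2.13 to 2.35). The other mutants were near WT at this time: elf3-1 elf3-2 had 23.0, 24.7 and 28.8 TPM and phyB 26.1, 23.4 and 28.3 TPM. Here and below, counting intervals cover counting error only, and may be too narrow, since 60.1% of the counts from 1 to 10 were even.

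CYCB1;1, a B-type cyclin, had 33.2, 27.7 and 32.6 TPM in lux, against 2.22, 1.64 and 1.23 TPM in WT at ZT14 SD, 16.4 times as much by scaled counts. In elf3-1 elf3-2 it had 0.673, 1.08 and 1.46 TPM, and in phyB 1.38, 1.98 and 1.53 TPM. Outside lux the cyclin did not exceed 2.41 TPM in any library, and it was at 0 in 5 of 71.

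CYCB2;2 had 15.4, 15.0 and 16.95 TPM in lux, against 0.506, 0.206 and 0.228 TPM in WT at ZT14 SD, 45.0 times as much by scaled counts (interval 32.5 to 64.1). Outside lux this cyclin was the most weakly detected of the 4 division genes, with 0 reads in 23 of 71 libraries and a highest value of 0.671 TPM.

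CDKB2;1 had 38.4, 33.3 and 42.3 TPM in lux, against 1.90, 1.34 and 0.959 TPM in WT at ZT14 SD, 24.5 times as much. It was never at 0 outside lux, where it ran from 0.140 to 2.24 TPM with a median of 1.08 TPM.

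OSH1 had 286, 417 and 542 reads in the lux libraries (5.95, 6.07 and 8.13 TPM), against 0 reads in each WT library at ZT14 SD. Against a floor of 3 reads over the WT group it was at least 337-fold higher in lux. In all 71 other libraries it had 4 reads, 2 each in WT ZT24 LD replicate 3, a doubted library, and WT ZT24 SD replicate 2. None of these reads came from an elf3-1 elf3-2 or phyB library.

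OSH15 had 11.8, 13.9 and 12.0 TPM in lux, against 0.202, 0.0 and 0.049 TPM in WT at ZT14 SD, a ratio of 138 (interval 69.7 to 320). It was not silent elsewhere: 34 of 71 libraries held reads, 180 in all, with a highest value of 0.314 TPM. Its reads lay in 8 of 17 elf3-1 elf3-2 libraries, 11 of 18 phyB libraries and 15 of 36 WT libraries.

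Ordered by mean TPM in lux, PCNA (70.1 ± 9.36), CDKB2;1 (38.0 ± 4.52) and CYCB1;1 (31.2 ± 2.99) came first, followed by CYCB2;2 (15.8 ± 1.03), OSH15 (12.6 ± 1.18) and OSH1 (6.72 ± 1.23, each ± the standard deviation over 3 libraries, as below). The lowest CDKB2;1 library (33.3 TPM) was barely above the highest CYCB1;1 library (33.2 TPM), so these neighbours in the order are not separated beyond their spread, and CYCB2;2 (15.0 TPM or more) and OSH15 (13.9 TPM or less) lay close as well. The median log2 difference between lux and WT at ZT14 SD was 4.77 over the members, with 0.1 CPM added. CPM are counts scaled to the TMM-adjusted library total, not to gene length. Placing OSH1 at its bound could not move this median, since OSH1 was the highest member either way. Over all tested genes the median was 0.098 in CPM and 0.268 in TPM, against 1.16 for PCNA, the lowest of the members in CPM. WT ZT14 SD replicate 1 is a doubted library. Without it the log2 differences were 1.15 for PCNA, 4.11 for CYCB1;1, 5.46 for CYCB2;2, 4.69 for CDKB2;1 and 6.33 for OSH15, against 1.16, 3.91, 5.09, 4.46 and 5.81 with it.

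Other genes of cell division, from lists kept where a RefSeq symbol matched the identifier, lay above all other libraries in lux as well, as did 18% of all tested genes. In the list for G2 and mitosis this held for 6 of 6 genes, whose summed level was 90.2 to 98.4 TPM in lux, against 14.2 to 20.2 TPM in WT at ZT14 SD. Its median log2 difference was 3.55, with CYCB1;5, another B-type cyclin, at 23.5 ± 1.97 TPM in lux and 0.467 ± 0.168 TPM in WT. CYCB2;1 had 17.7 TPM in lux and 0.859 TPM in WT, and CYCA2;1 had 10.9 and 0.790 TPM in the same order.

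In the DNA replication list, 7 of 7 genes were above every other library (median log2 difference 4.22), against 18% of all tested genes. MCM3, a subunit of the replicative helicase, had 24.7 ± 1.73 TPM in lux and 0.747 ± 0.339 TPM in WT at ZT14 SD. MCM7 differed 21.7-fold, MCM5 20.1-fold and ORC1, of the origin recognition complex, 20.7-fold. MCM2 differed least, 2.74-fold, from a WT level of 8.68 TPM.

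Genes of G1 control were above all others in 5 of 5 cases (median log2 difference 2.92), against 18% of all tested genes. RBR1, the retinoblastoma-related brake on S phase, differed 12.5-fold and CYCD4;1, a D-type cyclin, 8.33-fold. CDKA;1, the kinase present through the whole cycle, differed 1.52-fold. The plot of summed lists shows the separation.

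**Figure D2:**
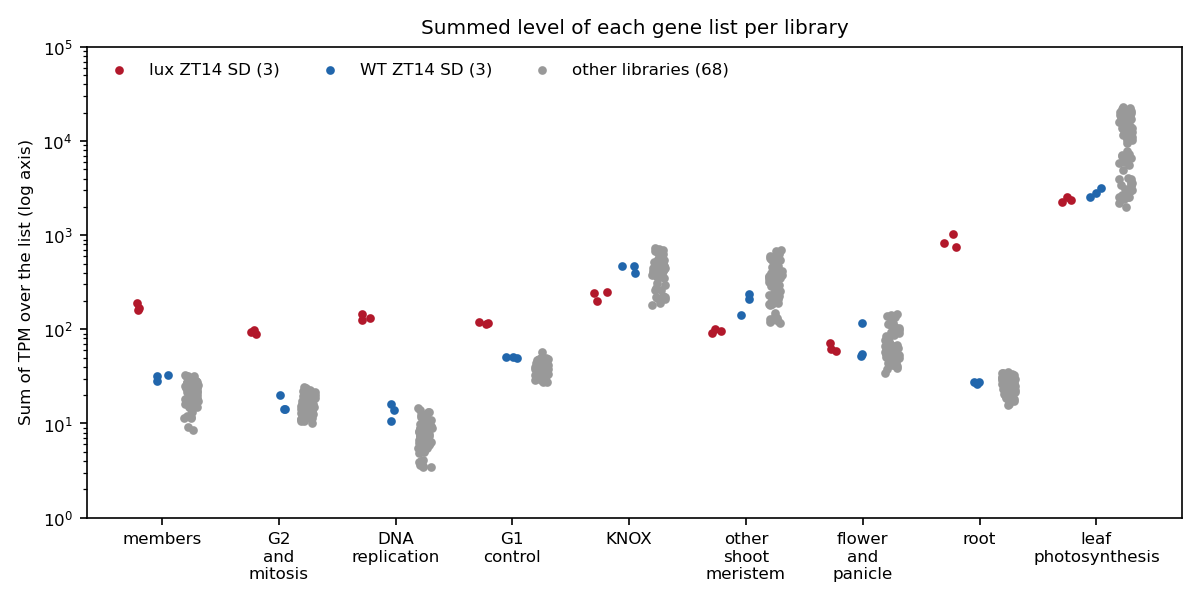
Summed TPM of each gene list on a log axis, each point a library: lux, WT at ZT14 SD and all other libraries from left to right. The sums for the members, G2 and mitosis, DNA replication, G1 control and root lie higher in lux than elsewhere (root 754 TPM or more, against 34.9 or less), and those for KNOX, flower and leaf photosynthesis genes overlap other libraries. Most of the KNOX sum is HOS59, which is lower in lux than in WT at ZT14 SD, while OSH71, OSH6 and OSH3 of that list are higher. The sum for other shoot meristem genes is lower in lux than elsewhere (101.6 TPM or less, against 116.1 or more), and most of it is LOG, while SPL14 of the same list is higher in lux.

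Among 6 other KNOX genes, 3 were above all others in lux, 1 was below and 2 overlapped. Over all tested genes the shares were 18% above and 4.88% below. OSH71 had 19.8 ± 1.82 TPM in lux and 0.128 ± 0.060 TPM in WT at ZT14 SD. OSH6 had 795 reads in lux and 0 in the 71 other libraries, and OSH3 had 334 reads in lux and 12 in the others. HOS59, the most abundant of the 6, was lower by CPM in lux than everywhere else, with 192 ± 22.3 TPM in lux and 439 ± 41.2 TPM in WT. The list was not split by KNOX class. OSH10 and OSH43 overlapped other libraries.

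Genes for other shoot meristem and flower functions did not move together. SPL14, which controls tillering and panicle branching, had 8.04 TPM in lux and 0.195 TPM in WT at ZT14 SD, while LOG, an enzyme of cytokinin activation, had 69.1 ± 2.13 TPM in lux and 181.5 ± 48.4 TPM in WT. Of 15 flower and panicle genes, 2 (MADS3 and RFL) were above all other libraries and 1 (MADS1) was below. Only 11 of the 15 had enough reads to be tested. Over all tested genes the shares were 18% above and 4.88% below, so these counts are not read as a result about the list.

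The root marker list moved with the members. In lux its 7 genes summed to 754 to 1033 TPM, against 26.5 to 27.7 TPM in WT at ZT14 SD and 15.7 to 34.9 TPM in all 71 other libraries. LSI1, a root silicon channel, had 434 ± 68.8 TPM in lux and 17.6 ± 1.86 TPM in WT, and LSI2, a silicon exporter of roots, had 261.5 ± 47.4 TPM in lux and 0.0164 TPM in WT. AMT1;2, a root ammonium transporter, had 53.3 ± 21.8 TPM in lux and was at 0 in WT, with 17 reads over the 71 other libraries. NRAMP5 and NRT2.1 were also above all other libraries, as was IRT1, and HKT2;1 overlapped them. Although all samples are labelled whole plants, LSI2, AMT1;2 and NRT2.1 did not exceed 0.338, 0.140 and 0.198 TPM outside lux, while LSI1 had 6.83 to 23.1 TPM there. The part of this in the members' result was not tested. The leaf photosynthesis list summed to 2249 to 2540 TPM in lux, below the 2576 to 3165 TPM of WT at ZT14 SD. This was inside the 2019 to 23310 TPM of all 71 other libraries. By scaled counts RCA differed 0.373-fold from WT at ZT14 SD, CAB1R 34.8-fold and CAB2R 2.31-fold (308 ± 316 TPM in WT).

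In WT over the day, the 12 group means of PCNA ran from 8.68 TPM at ZT2 LD to 27.6 TPM at ZT14 SD. In LD the means were 8.68 TPM at ZT2, 14.4 at ZT6, 19.8 at ZT10, 22.6 at ZT14, 25.7 at ZT18 and 12.5 at ZT24. In SD they were 13.1 TPM at ZT2, 15.6 at ZT6, 21.4 at ZT10, 27.6 at ZT14, 24.01 at ZT18 and 12.5 at ZT24. Levels were highest from ZT10 to ZT18 and lowest at ZT24 and ZT2, and libraries at ZT14 and ZT18 overlapped in both day lengths.

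**Figure D3:**
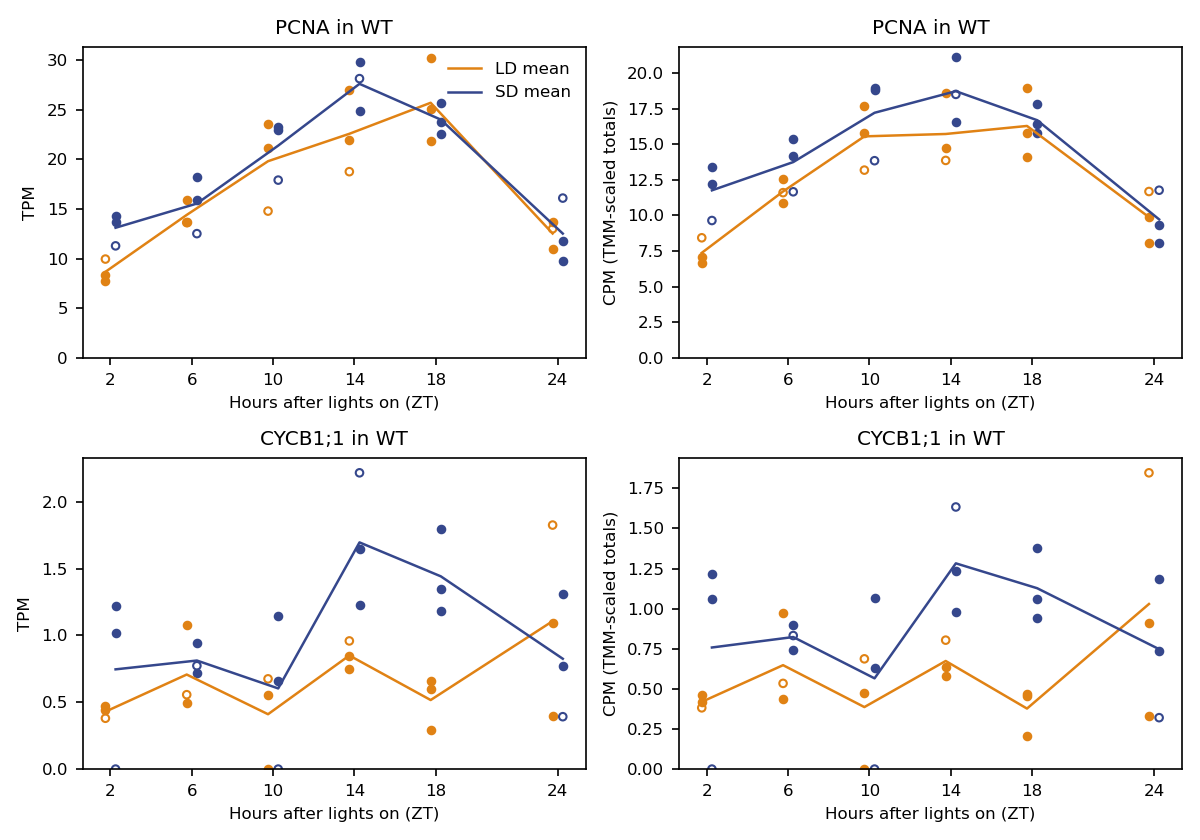
PCNA (top) and the cyclin CYCB1;1 (bottom) in WT by hours after lights on, in TPM (left) and CPM (right). Points are libraries, open where doubted, and lines join the LD and SD means. PCNA is highest from ZT10 to ZT18, up to 30.2 TPM in 1 library, on both scales.

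The size of this range differed between scales. The highest WT group mean of PCNA exceeded the lowest by 1.34 in log2 CPM and by 1.67 in log2 TPM. The median of all tested genes at ZT14 SD over ZT2 LD was 0.029 in log2 CPM and 0.326 in log2 TPM. Without the 17 doubted libraries the value was 1.46 in log2 CPM, with ZT10 SD highest. The mean of CYCB1;1 was highest at ZT14 SD (1.70 TPM) and lowest at ZT10 LD (0.411 TPM), and that of CDKB2;1 highest at ZT18 SD (1.55 TPM) and lowest at ZT10 LD (0.438 TPM). CYCB2;2 had 0 reads in all WT libraries at ZT2 LD. OSH15 had 0 reads in 4 of 12 WT groups and OSH1 in 10 of 12.

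Across the 24 groups other than lux, the means of CYCB1;1 and CDKB2;1 were alike with r = 0.64, CYCB1;1 and CYCB2;2 with r = 0.56, and CYCB2;2 and CDKB2;1 with r = 0.50 (log2 mean CPM + 0.1, Pearson). PCNA was less like them (0.21 to 0.34). These values were 0.74, 0.54 and 0.62 for the 3 pairs and 0.17 to 0.44 for PCNA without the doubted libraries. OSH1 and OSH15 gave 0.24, and -0.24 without the doubted libraries, but OSH1 rests on 4 reads. The groups share times and genotypes, so they are not independent points. With lux added the pairwise values were 0.57 to 0.94, a range that rests on that 1 group. Of the tested genes, MCM3, a helicase subunit, was the second most like CYCB1;1 both with lux (r = 0.96) and without it (r = 0.85 over 24 groups). With the doubted libraries left out too it ranked 7 (r = 0.84), and no listed gene was then among the 3 most like any member. In the other 2 settings it was the only listed one, and the remaining identifiers carry no symbol in the sources used here.

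Day length was compared within WT. OSH1 and OSH15 passed the filter on low counts only through lux and had few or no reads in all other groups, so counts of tests here and below are over the 4 division genes, and no test of either KNOX gene passed with all libraries. Of 24 tests of the 4 genes at 6 times, 1 passed by edgeR's quasi-likelihood test at adjusted p of 0.05 (4 at an unadjusted p under 0.05, DESeq2 1). That was PCNA at ZT2, with 6.64, 7.06 and 8.44 CPM in LD, against 13.4, 12.2 and 9.65 CPM in SD, a log2 difference of -0.67 (SE 0.18, adjusted p = 0.0275). All 3 LD libraries lay below all 3 SD libraries. Background at ZT2 was 2.67% of the tested genes called, 2.5% lower. The call rests on single libraries: without WT ZT2 LD replicate 1 or 2 the adjusted p was 0.155 for each, and without WT ZT2 SD replicate 1 or 2 it was 0.293 or 0.330, with the compared groups alone in the fit it was 0.292, and without the doubted libraries it was 0.000364. At the other times background was 0.0% at ZT6, 1.42% at ZT10, 29.3% at ZT14, 12.4% at ZT18 and 7.5% at ZT24, and no member was called with all libraries. With the doubted libraries left out, 4 of 24 passed. PCNA at ZT2 then differed by -0.88 and CDKB2;1 by -2.69 (adjusted p = 0.000419), where 29.9% of genes were called and 15.5% were lower. With all libraries this kinase had 0.140, 0.337 and 0.893 TPM in LD, against 1.61, 1.34 and 0.526 TPM in SD, the last value of each from a doubted library, and differed by -1.44 (SE 0.52, adjusted p = 0.128). At ZT10 it differed by -2.18 without them (adjusted p = 0.00688, 16.6% called) and by -1.18 with all (SE 0.56, adjusted p = 0.417). The fourth was CYCB1;1 at ZT18, given further on.

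Averaged over 6 times, PCNA was lower in LD than SD by a log2 difference of -0.22 (SE 0.07, adjusted p = 0.0137), where 28.7% of genes were called and 14.6% were lower. It no longer passed with limma on TPM (adjusted p up to 0.0738). CYCB1;1 had -0.67 (SE 0.27, adjusted p = 0.0569) and CDKB2;1 -0.43 (SE 0.20, adjusted p = 0.1004), and neither passed. Without the doubted libraries all 4 division genes passed, PCNA with -0.26 (adjusted p = 0.00197), CYCB1;1 with -1.09 (adjusted p = 0.000188), CDKB2;1 with -0.92 (adjusted p = 0.000348) and CYCB2;2 with an adjusted p of 0.00949, when 47.5% of all tested genes were called and 23.2% were lower. Over all settings tried, the adjusted p of CYCB1;1 ran from 0.000188 to 0.287 and that of CDKB2;1 from 0.000348 to 0.184. CYCB2;2 gets no fold here, since whole groups were at 0 reads.

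**Figure D4:**
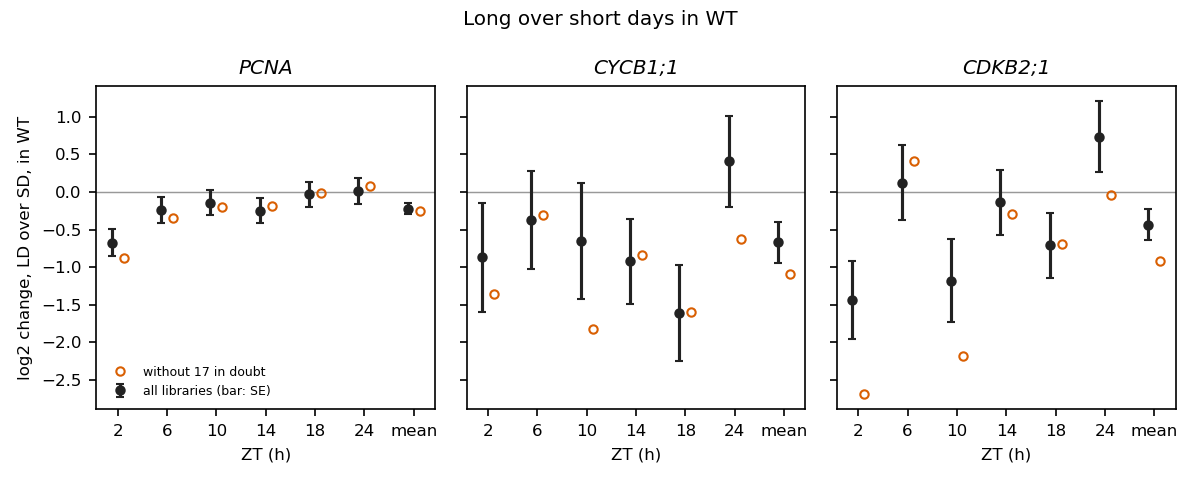
log2 difference of LD over SD in WT at each time and as the mean over 6 times, for PCNA, CYCB1;1 and CDKB2;1. Filled points use all libraries, with SE as bars, and open points leave out the 17 doubted ones. Most points lie below 0, and PCNA at ZT2 (-0.67) is the 1 single-time value that passed with all libraries.

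Most replication genes were lower in LD than in SD. Without the doubted libraries, 6 of 7 were lower in LD on average over times, where 23.2% of all tested genes were lower. With all libraries 5 of 7 were lower and none higher, with a list median of -1.05, where 14.6% of all tested genes were lower. MCM3 differed by -1.54 (SE 0.30, adjusted p = 8.2e-05) and MCM4 by -1.43 (SE 0.30, adjusted p = 0.000263), and MCM7 (-1.07) and MCM5 (-1.05) also passed. The values without the doubted libraries were -1.79 for MCM3, -2.40 for MCM4, -1.39 for MCM7 and -1.24 for MCM5. At ZT18, MCM3 had 0.161 ± 0.143 TPM in LD and 0.754 ± 0.174 TPM in SD, and MCM4 0.409 ± 0.109 TPM in LD and 1.48 ± 0.069 TPM in SD. At single times, 2 of 7 passed as lower at ZT2, 3 at ZT14 and 4 at ZT18, and 1 (ORC1) as higher at ZT14, where the share of all tested genes called lower was 2.5% at ZT2, 14.4% at ZT14 and 7.14% at ZT18. Leaving out the doubted libraries, 4, 5 and 6 of 7 were lower at ZT2, ZT14 and ZT18, and 1 was higher at ZT14. Of all tested genes 15.5% were then lower at ZT2 and 35.3% were called in either direction at ZT18. No share called lower in this setting is given for ZT14 or ZT18, so the counts at those times have no like background to be read against. The G2 and mitosis list did not move one way: CYCB2;1 was lower in LD, while CYCA3;2 and CDKB1;1, a kinase of the same family as CDKB2;1, were higher. Of 5 genes of G1 control, RBR1 and CDKA;1 were lower. Among 6 other KNOX genes OSH10 was lower (-0.63, adjusted p = 0.000928, and -0.67 without the doubted libraries). Without them 3 G2 and mitosis genes were lower and 2 higher, 2 G1 genes lower and 1 higher, and 2 KNOX genes lower. In that setting 47.5% of all tested genes were called on average over times, and 23.2% were lower.

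In the mutants, no member passed the test for day length. 0 of 24 tests passed by edgeR (1 at an unadjusted p under 0.05, DESeq2 0), where 0.754%, 6.52% and 14.5% of genes were called in elf3-1 elf3-2 at ZT6, ZT14 and ZT18, and 0.0%, 23.1% and 6.44% in phyB. Without the doubted libraries 2 passed, both in elf3-1 elf3-2 at ZT14, where 39.5% of genes were called. CYCB1;1 then differed by -1.60 in LD over SD (adjusted p = 0.0202, against -1.37, SE 0.73 and adjusted p = 0.267 with all libraries), and CYCB2;2 had 0 reads in both LD libraries, against 18 and 15 in SD replicates 2 and 3.

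Mutants were compared with WT at 3 times in LD and SD. For elf3-1 elf3-2, 0 of 24 tests passed by edgeR (2 at an unadjusted p under 0.05, DESeq2 0), and background in LD was 2.68% at ZT6, 0.0% at ZT14 and 0.612% at ZT18, and in SD 0.169%, 1.41% and 0.543% at those times. For phyB, 0 of 24 passed (1 at an unadjusted p under 0.05, DESeq2 0), with 0.0%, 0.0% and 6.75% of genes called in LD and 0.0%, 0.0138% and 1.87% in SD. With the doubted libraries left out, 3 phyB tests passed, 2 of them at ZT18 LD (29.6% called): PCNA differed by -0.35 (adjusted p = 0.0399, and -0.32, SE 0.17, adjusted p = 0.244 with all libraries), and CYCB1;1 is given below. The third was CDKB2;1 at ZT14 LD (1.06, adjusted p = 0.0448, 24.6% called). Averaged over the 6 conditions, PCNA differed by 0.02 (SE 0.07) in elf3-1 elf3-2 and -0.06 (SE 0.07) in phyB, against backgrounds of 12.9% and 13.9%. Without the doubted libraries the elf3-1 elf3-2 average of PCNA was -0.06 (adjusted p = 0.587, 28.1% of genes called), and the phyB averages were -0.17 for PCNA (adjusted p = 0.0262) and 0.41 for CDKB2;1 (adjusted p = 0.0383), where 46.5% of genes were called. Among the cell-cycle and other KNOX lists, OSH10 alone passed in elf3-1 elf3-2 on average with all libraries, as higher (0.48, adjusted p = 0.0138, and 0.53 with 0.00257 without the doubted ones). In phyB 3 passed. MCM2 was lower (-0.53, adjusted p = 0.000315, and -0.75 without the doubted libraries) and CYCD4;1 higher (0.90, adjusted p = 0.00224, and 1.00 without them). OSH43 passed as higher (adjusted p = 0.0493, and 0.00452 without them) on 4 to 26 reads per phyB group, against 0 to 5 reads in each matching WT group. More genes of these lists passed on average without the doubted libraries, as did more of all tested genes. In elf3-1 elf3-2, 2 of 7 replication genes were then lower, and 2 of 5 G1 and 2 of 6 KNOX genes higher, where 28.1% of all tested genes were called. In phyB, 2 of 6 G2 and mitosis genes were higher and 1 of 7 replication genes lower. Of 5 G1 genes 1 was lower and 2 higher, and of 6 KNOX genes 1 was lower and 1 higher. The share of all tested genes called in phyB was 46.5%. These counts do not stand out from the background in either mutant. A p that misses the threshold does not show that the levels were equal.

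CYCB1;1 separated from WT in both mutants at ZT18 LD. It had 1.72, 0.866 and 1.34 CPM in elf3-1 elf3-2 and 0.986, 0.954 and 1.67 CPM in phyB, against 0.455, 0.470 and 0.207 CPM in WT. Neither mutant overlapped WT, and the share of all tested genes that separate in this way is not given here. In SD at the same time it had 0.816, 0.572 and 0.926 CPM in elf3-1 elf3-2 and 1.19, 0.997 and 0.919 CPM in phyB, against 1.38, 0.944 and 1.06 CPM in WT. The elf3-1 elf3-2 libraries lay below WT there and the phyB ones overlapped it.

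**Figure D5:**
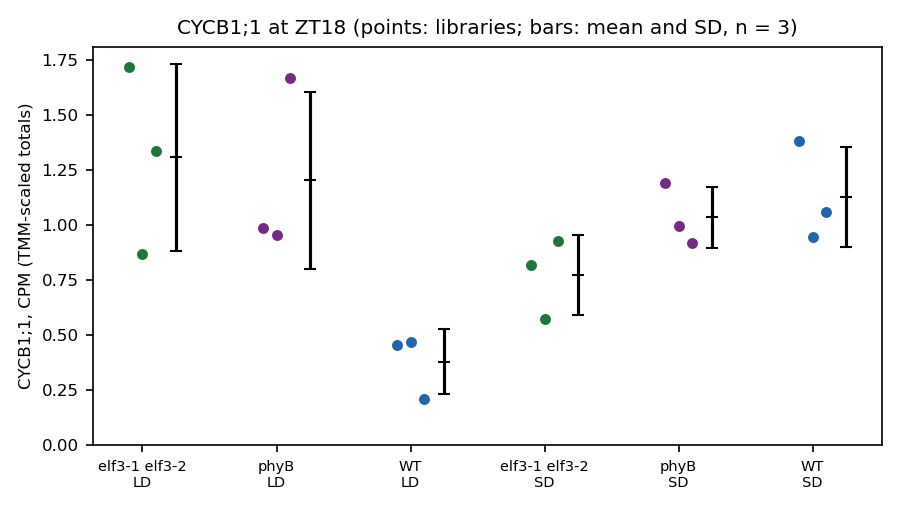
CYCB1;1 in CPM at ZT18 by library, elf3-1 elf3-2 and phyB left of WT, in LD and SD. Bars are mean and standard deviation (n = 3). In LD all mutant libraries lie above the 0.470 CPM of the highest WT library, and in SD the elf3-1 elf3-2 ones lie below the 0.944 CPM of the lowest.

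The log2 difference at ZT18 LD was 1.81 for elf3-1 elf3-2 (SE 0.62, adjusted p = 0.202) and 1.71 for phyB (SE 0.62, adjusted p = 0.0776), each against the same WT libraries. Neither passed with all libraries in the fit. Without the doubted libraries, none of which is at ZT18, the values were 1.79 (adjusted p = 0.00581, 13.9% of genes called) and 1.69 (adjusted p = 0.00352, 29.6% called), and with the compared groups alone in the fit the adjusted p was 0.0279 and 0.00787. Over all settings the adjusted p ran from 0.00581 to 0.544 for elf3-1 elf3-2 and from 0.00352 to 0.292 for phyB. CYCB1;5, a related cyclin, was higher in phyB at ZT18 LD (log2 difference 2.31, SE 0.68, adjusted p = 0.0322, and 2.26 with 0.00103 without the doubted libraries), at 0.876 ± 0.154 TPM in phyB and 0.147 ± 0.254 TPM in WT.

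Within WT at ZT18, CYCB1;1 differed by -1.61 in LD over SD (SE 0.64, adjusted p = 0.0845, against 0.00689 without the doubted libraries, where 35.3% of genes were called, and 0.00518 with the compared groups alone). Whether the mutants differ from WT in that effect was tested directly, with contrasts added after the values were seen. The LD effect at ZT18 was greater in elf3-1 elf3-2 than in WT by 2.36 (SE 0.84, adjusted p = 0.985), and by 2.34 without the doubted libraries (adjusted p = 0.0407, 1.33% of genes called). For phyB the difference was 1.84 (SE 0.82, adjusted p = 1.0, and 0.0426 with the compared groups alone). Over 8 such contrasts and the 4 division genes, 0 of 32 tests passed by edgeR (3 at an unadjusted p under 0.05, DESeq2 0), where the contrasts called 0.0% of all genes, except for 0.0104% by phyB at ZT18.

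Time of day was tested within the mutants. Of 16 tests, 0 passed by edgeR (2 at an unadjusted p under 0.05), while 19.0% and 30.2% of genes were called in elf3-1 elf3-2 in LD and SD, and 32.3% and 35.1% in phyB. DESeq2 was not run on this test. With limma on log2 TPM, 5 passed with a pseudocount of 1 and 4 with 0.1, in each case 3 of them PCNA and the rest CYCB1;1. The share of all genes called by limma is not given here, so these counts have no background to be read against. TPM and CPM are on different scales. For ZT14 over ZT6 in phyB SD the median of all genes was 0.008 in log2 CPM and 0.405 in log2 TPM, and PCNA 0.090 and 0.506 in the same order. Without the doubted libraries, CYCB1;1 (adjusted p = 0.00488) and CYCB2;2 (adjusted p = 0.0473) passed in elf3-1 elf3-2 in LD, where 43.9% of genes were called. By edgeR, PCNA gave adjusted p from 0.198 to 1.0 over these 4 tests with all libraries, and from 0.125 to 0.552 without the doubted ones. By limma with a pseudocount of 1 it passed in elf3-1 elf3-2 in SD (adjusted p = 0.0227) and in phyB in LD (0.0167) and SD (0.0331).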

How the data were processed

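The authors deposited gene counts (raw whole-number counts) and TPM for 74 libraries of whole rice plants. Per the labels' protocols, RNA came from an RNeasy kit and libraries from NEBNext Ultra II Directional. HISAT2, StringTie and the IRGSP-1.0 genome are named in the submitters' processing notes, with no versions. TPM sums per library were 0.985 to 0.997 M. In all, 2 columns matched no sample and were not used.

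Groups came from the labels alone. Counts were tested with edgeR 4.0.16 (R 4.3.3): filterByExpr (28912 genes tested, 8937 left out), TMM factors (0.808 to 1.21), 1 mean per group, glmQLFit with robust estimation, 49 residual degrees of freedom, and Benjamini-Hochberg adjustment over all tested genes, with a threshold of 0.05. OSH1 and OSH15 passed the filter only through lux. CPM use the TMM-scaled total. DESeq2 1.42.0, limma 3.58.1 (log2 TPM plus 1 or 0.1) and other settings were alternatives. The procedure was run on simulated data for a single comparison, with the same spread for all genes and changes only in well-counted genes. That run does not cover doubted libraries or genes with few reads, and its outcome is not given here. Members and gene lists were chosen with earlier results of these data known. Genes named are the 6 members, and in other lists at most 4 per comparison past the threshold or, for lux, not overlapping the others. All 7 root markers that were kept are named, though not all with levels, and RCc3 was dropped because no RefSeq symbol was found. Other genes beyond that were chosen after their values were seen. Of 75 further genes on the lists, 53 were kept, by RefSeq symbol and position. Replicate numbers were not used as pairs.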

Additional observations from a re-analysis of the deposited data

Results flagged for a closer look

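CYCB1;1 stood out because its elf3-1 elf3-2 libraries moved one way in LD and the other in SD at ZT18. All 3 LD libraries of the mutant were above WT (log2 difference 1.81, SE 0.62, adjusted p = 0.202 by edgeR). All 3 SD libraries were below it (-0.55, SE 0.57, adjusted p = 0.90 by edgeR). Neither test passed, and the share of all tested genes that separate in this way is not given here. The test of the difference between day lengths gave 2.36 with an adjusted p of 0.985 (edgeR), and 2.34 with 0.0407 without the 17 doubted libraries, and the comparison was added after the values were seen. No group of the series had 4 or more libraries, so no test for a library standing apart within its group was run, and the distances of the doubted libraries are descriptions.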

How the results depend on the processing

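Counts of members past the threshold depended on the 17 doubted libraries. Without them, 1 of 24 elf3-1 elf3-2 over WT tests passed, 3 of 24 phyB over WT tests and 4 of 24 WT day-length tests. So did 2 of 24 mutant day-length tests and 2 of 16 time-of-day tests, all over the 4 division genes. More of all genes were called too, 13.9% to 43.9% in the comparisons where a member passed. These counts are therefore not read as a result about the members. The leave-out was chosen after seeing data in earlier work. With the compared groups alone, 1 elf3-1 elf3-2, 2 phyB and 1 WT day-length test passed, the last being CYCB1;1 at ZT18 (-1.60, adjusted p = 0.00518), while PCNA at ZT2 did not pass (adjusted p = 0.292). With limma on log2(TPM + 1), 1 phyB test, 0 WT day-length tests and 5 time-of-day tests passed, and on log2(TPM + 0.1), 0 WT day-length and 4 time-of-day tests. The share of all genes called is not given for limma or for the compared groups alone, so those counts have no background to be read against. Leaving out 1 library at a time gave 0 to 2 passing WT day-length tests and 0 to 1 time-of-day tests, that 1 without phyB ZT6 LD replicate 3. It gave 0 for the other comparisons. The median log2 difference of lux over WT was 4.97 in TPM and 5.07 without the doubted libraries (4.70 to 4.84 with 1 lux library left out). PCNA over the WT day was 1.67 in TPM and 1.46 without the doubted libraries. Replicate numbers do not pair the samples: 11 of 35 pairs correlated over 0.1 (range -0.74 to 0.29). With a replicate block, 0, 0, 1, 0 and 0 tests passed in the 5 families, the same counts as without it. Low counts limit CYCB2;2, OSH1 and OSH15 outside lux. The cause of these dependences was not tested.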
